A study of Mus musculus with 6 samples.

Results

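The genes described here encode the proteins of central nervous system myelin and a factor that switches them on: Mbp, Mog, Mag, Mobp, Cnp, Mal, Cldn11, Opalin and Myrf. A member was measured by the probe whose annotation gives exactly its symbol and no other. Of the 9 genes, 8 had such a probe, 1 probe each, out of 14860 genes measured in this way, and Myrf had none. The genes were read in the hippocampus of 3 transgenic and 3 wildtype mice, all 63 weeks old, with 1 Affymetrix array per animal. The labels call the transgenic animals HGPS, which commonly stands for Hutchinson-Gilford progeria, a disease of early ageing that arises from changes in LMNA, the gene of lamins A and C. The sources used here do not give the transgene, its promoter, the cells that carry it, or the strain and sex of the animals. Values are deposited log2 signals, so that a difference of 1 is 2-fold, and the number of arrays limits the precision.

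Oligodendrocytes wrap axons in many layers of their own membrane, and the compaction of these layers depends on a small set of abundant proteins made mostly by these cells in the brain. In the hippocampus, myelin is concentrated in the alveus, the fimbria and the bundles of the inner layers. The transcription factors OLIG2 and SOX10 establish the lineage, and MYRF activates the myelin genes as precursors mature. In RNA of a whole tissue, fewer oligodendrocytes and less myelin RNA per oligodendrocyte cannot be told apart.

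None of the 8 myelin genes passed a false discovery rate of 10% between transgenic and wildtype hippocampus, in limma with Benjamini-Hochberg adjustment over 14996 probes. Of all probes, 0.0467% passed, all of them lower in transgenic animals. Among the myelin genes 6 had a higher and 2 a lower mean in transgenic animals. Their median log2 difference was 0.06, beside 0.00 over all probes, and their adjusted p ran between 0.492 and 0.876. None had an unadjusted p under 0.05, against 10.6% of all probes (5.81% higher and 4.8% lower in transgenic animals). The groups overlapped in all 8, while they did not overlap in 17.7% of all probes (9.14% higher and 8.55% lower). The 95% intervals of all 8 genes excluded a difference of 1.5-fold in either direction, as did those of 91.9% of all probes. The widest interval, that of Opalin, reached down to 0.674 of the wildtype level. On every array each of the 8 genes lay above the array's median signal, as did each of 16 neuronal marker genes.

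**Figure D1:**
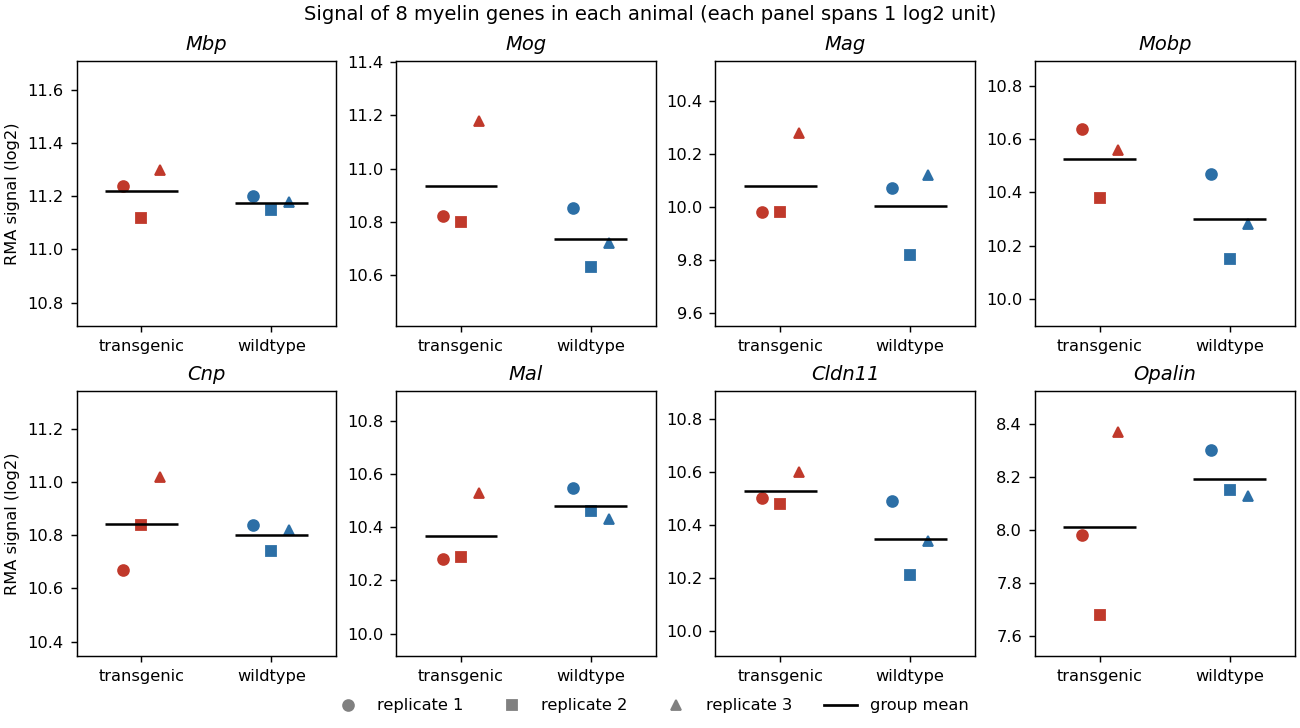
Deposited signal (RMA, log2) of each myelin gene in each animal, transgenic left and wildtype right, with symbols for replicates and bars for group means; each panel spans the same range. The groups overlap in all 8 genes, and transgenic replicate 3 is the highest of the 6 arrays in 6 of them.

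Mobp and Mbp both encode basic proteins of compact myelin. Mobp, a protein of the compact layers, had 10.64, 10.38 and 10.56 in transgenic replicates 1 to 3, against 10.47, 10.15 and 10.28 in wildtype replicates 1 to 3. Transgenic replicates 1 and 3 lay above every wildtype animal, and transgenic replicate 2 lay below wildtype replicate 1. The difference was 0.23 ± 0.10 (SE, 95% interval -0.02 to 0.47, limma adjusted p = 0.492). Mbp, the protein that holds the cytoplasmic faces of the myelin membrane together, had 11.24, 11.12 and 11.30 in transgenic animals and 11.20, 11.15 and 11.18 in wildtype animals. All 3 wildtype values lay inside the range of the transgenic ones. Its difference was 0.04 ± 0.07 (SE, limma adjusted p = 0.836), and its interval of -0.12 to 0.20 was the narrowest of the 8.

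Cldn11, the claudin that forms the tight junctions between myelin layers, had 10.50, 10.48 and 10.60 in transgenic animals and 10.49, 10.21 and 10.34 in wildtype animals. Only wildtype replicate 1 reached into the transgenic range, above transgenic replicate 2. The difference was 0.18 ± 0.08 (SE, limma adjusted p = 0.494). Mal, a proteolipid of myelin lipid rafts, went the other way in its mean. It had 10.28, 10.29 and 10.53 in transgenic animals and 10.55, 10.46 and 10.43 in wildtype animals, so that transgenic replicates 1 and 2 lay below all wildtype animals and transgenic replicate 3 among them. Its difference was -0.12 ± 0.09 (SE, limma adjusted p = 0.629).

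Mog and Mag encode proteins of the outer and inner surfaces of the sheath. Mog, the immunoglobulin-like protein of the outermost layer, had 10.82, 10.80 and 11.18 in transgenic animals and 10.85, 10.63 and 10.72 in wildtype animals. Transgenic replicate 3 stood above the rest, while the other two transgenic animals lay within the wildtype range. The difference was 0.20 ± 0.12 (SE, limma adjusted p = 0.562). Mag, the lectin that faces the axon, had 9.98, 9.98 and 10.28 in transgenic animals and 10.07, 9.82 and 10.12 in wildtype animals. Here too transgenic replicate 3 was highest and the other two lay between wildtype animals. Its difference was 0.08 ± 0.11 (SE, limma adjusted p = 0.803).

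Cnp, the cyclic nucleotide phosphodiesterase that keeps cytoplasmic channels in myelin open, had 10.67, 10.84 and 11.02 in transgenic animals and 10.84, 10.74 and 10.82 in wildtype animals. The transgenic group held both the lowest and the highest animal. Its difference was 0.04 ± 0.09 (SE, limma adjusted p = 0.876). Opalin, a transmembrane glycoprotein specific to oligodendrocytes, had 7.98, 7.68 and 8.37 in transgenic animals and 8.30, 8.15 and 8.13 in wildtype animals. All 3 wildtype animals fell inside the wide transgenic range, with an SD of 0.35 in transgenic and 0.09 in wildtype animals. Its difference was -0.19 ± 0.16 (SE, limma adjusted p = 0.686).

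**Figure D2:**
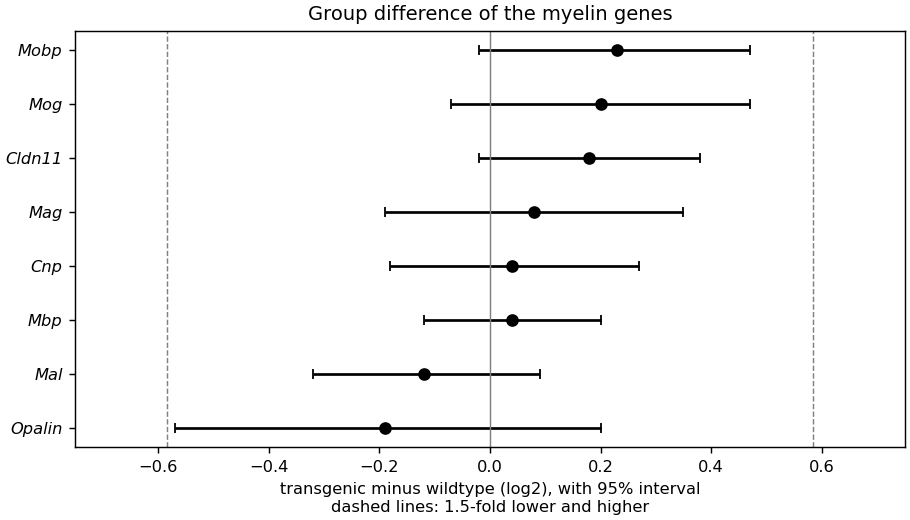
Transgenic minus wildtype difference (log2) of each myelin gene with its 95% interval from limma, ordered by size; dashed lines mark 1.5-fold. All 8 intervals include 0 and stay within the dashed lines, that of Opalin closest to them at -0.57.

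Single animals stood apart in several of these genes. Transgenic replicate 3 was the highest array in 6 of the 8 genes (75%), against 27.6% of all probes, and wildtype replicate 2 was the lowest in 4 (50%), against 22.3%. Relative to each gene's mean over the 6 arrays, the 8 genes averaged -0.02, -0.09 and 0.20 in transgenic replicates 1 to 3 and 0.06, -0.12 and -0.03 in wildtype replicates 1 to 3. Transgenic replicate 3 thus had the highest mean and wildtype replicate 2 the lowest. The residual SD within groups was 0.138 at the median of the 8 genes, beside 0.0981 over all probes, and 7 of the 8 lay above that value. Opalin, at 0.253, varied more than 92.8% of the probes, while Mbp, at 0.0676, varied more than 25% of them.

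Without transgenic replicate 3 the median difference of the 8 genes was -0.01, and the differences of Mbp, Mag and Cnp were 0.00, -0.02 and -0.04. The difference of Mag was also -0.01 without wildtype replicate 2. That of Mog was 0.08 without transgenic replicate 3. Opalin had -0.37 without transgenic replicate 3 and -0.02 without transgenic replicate 2. Mobp and Cldn11 stayed above 0 and Mal below 0 whichever array was left out, within 0.15 to 0.31, 0.11 to 0.25 and -0.20 to -0.07. No myelin gene passed in these fits, and over all probes calls were made only without wildtype replicate 1 (103) and without transgenic replicate 3 (6).

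**Figure D3:**
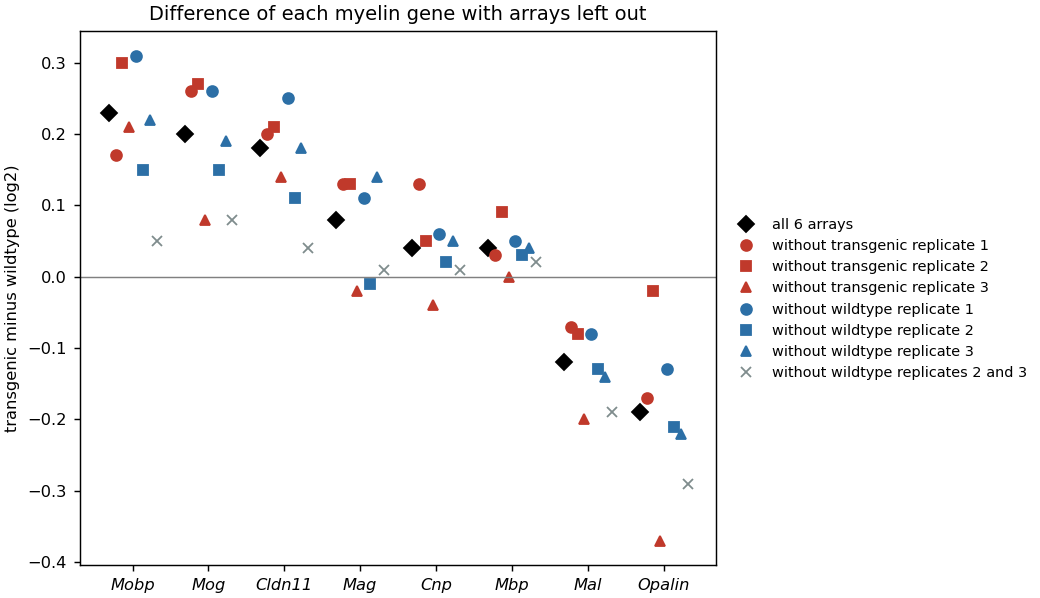
Transgenic minus wildtype difference (log2) of each myelin gene with all 6 arrays (diamonds), without each array in turn, and without wildtype replicates 2 and 3 together (crosses). Differences of Mbp, Mag and Cnp lie at or below 0 without transgenic replicate 3, and those of Mal and Opalin lie below 0 in every fit shown.

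The wildtype animals also differed among themselves in the signal of the Y chromosome. The Y-linked genes Eif2s3y and Kdm5d averaged 4.67, 4.78 and 4.70 in transgenic animals, against 4.63, 8.41 and 8.45 in wildtype replicates 1 to 3. A high signal of Y-linked genes marks males. By it, wildtype replicates 2 and 3 were male and the other animals female, which the labels do not state. Sex and genotype were thus partly confounded, and their parts in the group differences cannot be fully told apart. Wildtype replicate 1, which shared the low Y-linked signal of the transgenic animals, was the highest wildtype animal in 7 of the 8 myelin genes, all but Mag, and in 29.9% of all probes. In a fit with this signal added as a covariate, the 8 genes had a median difference of 0.02, Mobp one of 0.06, Mog one of 0.09 and Cldn11 one of 0.05. Mal and Opalin had -0.19 and -0.30 in that fit. Leaving out wildtype replicates 2 and 3 gave 0.05 for Mobp, 0.08 for Mog, 0.04 for Cldn11, -0.19 for Mal and -0.29 for Opalin. Both fits rest on wildtype replicate 1 as the only wildtype animal without the signal, so the second is no separate check of the first. No probe of any gene passed in either fit, so the absence of a call there says nothing about the myelin genes.

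The myelin genes did not all keep the same proportion to each other. When each gene was expressed relative to the mean of the 8 on the same array, Mal lay at -0.13, -0.05 and -0.09 in transgenic animals and at 0.07, 0.16 and 0.04 in wildtype animals. All transgenic animals were below all wildtype animals on this scale. Mog lay at 0.01, 0.05 and 0.15 in transgenic animals and at -0.05, -0.08 and -0.09 in wildtype animals, with all transgenic animals above. In the other 6 genes the groups overlapped, including Opalin, which lay at -0.10, -0.34 and 0.07 in transgenic animals and at 0.14, 0.17 and 0.06 in wildtype animals. The groups did not overlap on this scale in 6.32% of all probes (2.89% higher and 3.43% lower), against 17.7% on the plain scale. The 6.32% is no like baseline for the myelin genes. Subtracting their mean takes shared spread out of a myelin gene but can add it to an unrelated probe. Each myelin gene enters the mean it is set against, and the scale was chosen after the values were seen, so these values are a description.

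Mobp, Mog and Cldn11 had the largest differences among the genes with a higher transgenic mean, and Mal and Opalin were the only ones with a lower mean. Promoters are shown for these 5 genes, which had the largest differences in each direction. Each window holds 250 bases before and 50 after the gene's start, from RefSeq on the build GRCm38.p6, and such windows were found for 7 of the 9 genes (all but Mbp and Myrf), 9 windows in all. The windows are chr9:120149492-120149791 on the plus strand for Mobp, chr17:37023349-37023648 on the minus strand for Mog, chr3:31149670-31149969 on the plus strand for Cldn11, chr2:127656646-127656945 on the minus strand for Mal and chr19:41077064-41077363 on the minus strand for Opalin. Sequences are written along the gene, and capitals mark matches on either strand to CTGGNAC (the core of the motif bound by MYRF), ACAAAG or ACAATG (cores bound by SOX factors) or CAGCTG (an E-box, the motif type bound by OLIG2); no match overlapped another.
Mobp: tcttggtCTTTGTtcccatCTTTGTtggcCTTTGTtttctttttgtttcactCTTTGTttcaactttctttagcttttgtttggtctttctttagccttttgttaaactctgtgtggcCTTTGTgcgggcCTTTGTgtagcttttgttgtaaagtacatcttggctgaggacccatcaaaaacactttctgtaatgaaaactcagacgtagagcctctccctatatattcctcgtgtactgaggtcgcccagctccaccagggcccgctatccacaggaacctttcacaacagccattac
Mog: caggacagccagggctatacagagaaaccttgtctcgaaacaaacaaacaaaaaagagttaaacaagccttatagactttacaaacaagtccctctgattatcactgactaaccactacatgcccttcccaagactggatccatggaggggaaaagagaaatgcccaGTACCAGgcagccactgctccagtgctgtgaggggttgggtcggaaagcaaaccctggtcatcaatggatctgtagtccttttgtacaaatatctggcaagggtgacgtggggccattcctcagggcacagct
Cldn11: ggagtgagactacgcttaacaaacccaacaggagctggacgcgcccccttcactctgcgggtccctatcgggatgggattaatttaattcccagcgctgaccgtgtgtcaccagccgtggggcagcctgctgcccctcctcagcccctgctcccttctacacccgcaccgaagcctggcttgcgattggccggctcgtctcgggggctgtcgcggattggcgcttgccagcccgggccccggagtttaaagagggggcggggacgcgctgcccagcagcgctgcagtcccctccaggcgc
Mal: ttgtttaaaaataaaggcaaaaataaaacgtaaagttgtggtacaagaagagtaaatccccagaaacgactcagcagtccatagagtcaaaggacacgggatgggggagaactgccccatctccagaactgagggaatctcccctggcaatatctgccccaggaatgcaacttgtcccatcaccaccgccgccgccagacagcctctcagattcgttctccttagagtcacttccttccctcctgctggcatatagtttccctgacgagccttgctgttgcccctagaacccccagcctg
Opalin: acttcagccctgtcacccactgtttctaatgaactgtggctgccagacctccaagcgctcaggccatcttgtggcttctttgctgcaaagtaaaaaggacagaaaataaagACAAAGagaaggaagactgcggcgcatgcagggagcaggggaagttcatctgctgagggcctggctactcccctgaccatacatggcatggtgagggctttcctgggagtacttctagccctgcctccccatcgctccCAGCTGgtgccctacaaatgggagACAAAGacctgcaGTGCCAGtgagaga

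The Mobp window held ACAAAG 6 times, all on the strand opposite to the gene, and none of the other motifs. The Mog window held CTGGNAC at 1 position. The Opalin window held ACAAAG at 2 positions, CTGGNAC at 1 and CAGCTG at 1. The windows of Cldn11 and Mal held none of the 4 motifs. CTGGNAC was found in 5 of the 9 windows, against 19.3% of all 32851 windows of the table. These windows belonged to 4 of the 7 genes (Mog, Mag, Cnp and Opalin), and Mag had overlapping windows that shared their matches. ACAAAG was found in 5 of the 9 windows, those of 4 genes (Mag, Mobp, Cnp and Opalin), against 18.7% of all windows. CAGCTG was found in 1 window, against 16.3%, and ACAATG in none, against 12.6%. A match describes the sequence only, and binding was not measured here.

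Differences of other genes of the pathway did not pass either. Of 37 further genes of myelin and mature oligodendrocytes, 31 were measured and none passed in limma. The median difference of the 31 was 0.02. An unadjusted p under 0.05 was found for 2 higher and 2 lower ones. Over all probes 5.81% were higher and 4.8% lower at that p, to be read beside the counts of this and the following lists. Transgenic replicate 3 was the highest array in 17 of the 31 (54.8%) and wildtype replicate 2 the lowest in 12 (38.7%). Lpar1, a receptor for lysophosphatidic acid, had 8.79, 8.82 and 8.80 in transgenic animals and 8.69, 8.51 and 8.56 in wildtype animals, and the groups did not overlap (difference 0.22 ± 0.07, SE, limma adjusted p = 0.431). Apod, a lipid-binding lipocalin that cells of the meninges also make, differed by 0.47 ± 0.15 (SE, limma adjusted p = 0.432). It passed only without wildtype replicate 1, the wildtype animal with the highest Apod signal (12.80, 12.80 and 12.63 in transgenic animals, 12.63, 12.20 and 12 in wildtype animals). Ermn, a cytoskeletal protein of mature oligodendrocytes, had 9.66, 9.45 and 9.63 in transgenic animals and 9.95, 9.72 and 9.81 in wildtype animals, without overlap (difference -0.25 ± 0.09, SE, limma adjusted p = 0.433).

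Genes for making myelin lipids gave 19 measured of 22, with a median difference of -0.01 and none past the threshold in limma, 1 having an unadjusted p under 0.05. That gene, Insig1, which restrains cholesterol synthesis, differed by 0.18 ± 0.06 (SE, limma adjusted p = 0.432). Dhcr7, an enzyme of the last steps of cholesterol synthesis, differed by -0.17 ± 0.08, and Cers2, the synthase of very long chain ceramides, by 0.23 ± 0.11. Ugt8a, the enzyme that makes the myelin lipid galactosylceramide, differed by -0.05 ± 0.08.

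Among 17 measured transcription factors of the lineage, of 18 listed, none passed in limma, and 1 higher and 2 lower genes had an unadjusted p under 0.05. The lineage factor genes Olig1, Olig2 and Sox10 differed by 0.15 ± 0.10, 0.05 ± 0.06 and -0.04 ± 0.08 (SE). Hes5, a Notch target that restrains maturation, differed by -0.20 ± 0.08, Zeb2, which promotes it, by -0.16 ± 0.07 and Tcf7l2, which is also strongly expressed in thalamus, by 0.26 ± 0.11.

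Of 20 listed genes of oligodendrocyte precursors 18 were measured, with a median difference of -0.03 and none past the threshold in limma. An unadjusted p under 0.05 was found for 2, both higher. Pdgfra, a growth factor receptor of these cells, had 8.47, 8.51 and 8.35 in transgenic animals and 8.49, 8.26 and 8.28 in wildtype animals. Its difference was 0.10 ± 0.08 (SE, limma adjusted p = 0.681). Bmp4, a secreted signal of committed precursors that vessels and meninges also express, had 8.11, 8.01 and 7.90 in transgenic animals and 7.96, 7.28 and 7.26 in wildtype animals. The groups overlapped through wildtype replicate 1 alone, and Bmp4 passed only when that array was left out. Tmem100, a membrane protein of BMP signalling, differed by 0.25 ± 0.08 and C1ql1, a secreted protein of the complement-like family, by -0.11 ± 0.06.

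Genes of the axonal partners and of signals were the last of the pathway. Of 16 measured genes of the node and paranode, 8 were higher and 8 lower, with a median of 0.00. None passed in limma or had an unadjusted p under 0.05, and the smallest p values were those of Gldn, which clusters channels at peripheral nodes (-0.17 ± 0.09), and of the ankyrin gene Ank2 and the paranodal anchor gene Epb41l3 (-0.11 ± 0.06 and 0.10 ± 0.06). Of 22 measured genes of signals to oligodendrocytes none passed in limma, and 2 higher and 2 lower ones had an unadjusted p under 0.05. Lingo1, an inhibitor of myelination, had 10.38, 10.37 and 10.13 in transgenic animals and 10.52, 10.53 and 10.58 in wildtype animals, without overlap (difference -0.25 ± 0.08, SE, limma adjusted p = 0.432). The Notch ligand gene Jag1 differed by 0.28 ± 0.10 and the thyroid hormone receptor gene Thra by -0.20 ± 0.08.

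**Figure D4:**
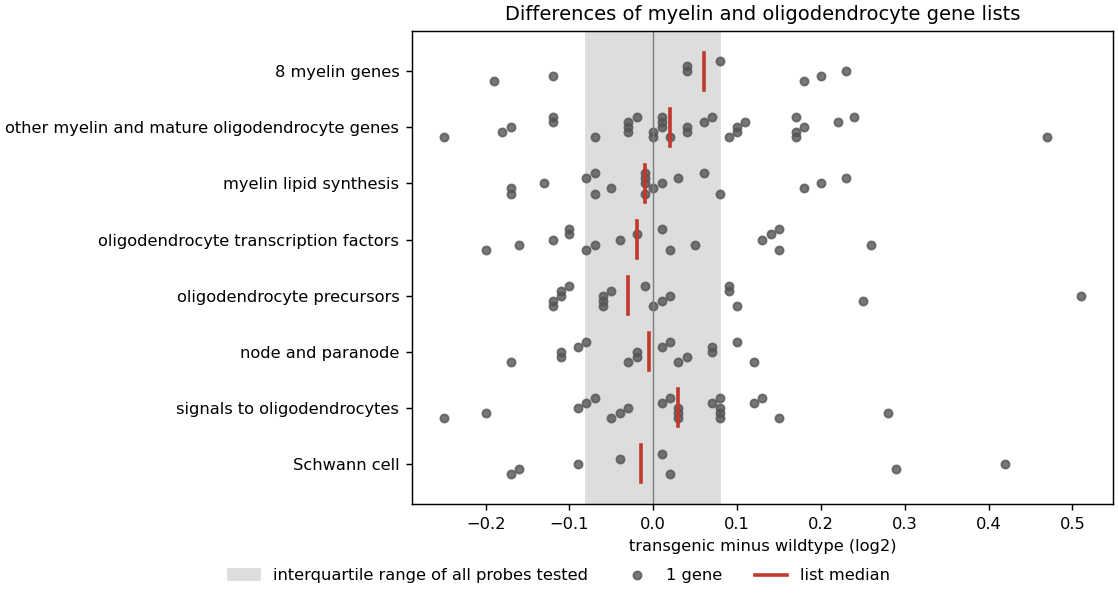
Transgenic minus wildtype difference (log2) of every measured gene of the 8 myelin genes and 7 related lists; red bars are list medians and the grey band is the interquartile range of all probes tested (-0.08 to 0.08). All 8 medians lie inside the band.

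Lists of genes of other cells also differed between the arrays, not all in the same course as the myelin genes. The meningeal list averaged 0.33, 0.43 and 0.28 in transgenic animals and 0.25, -0.61 and -0.67 in wildtype animals, relative to the mean over arrays. All 15 of its genes had a higher transgenic mean, with a median of 0.52, and 10 had an unadjusted p under 0.05, though none passed in limma. Of all probes, 10.6% had such a p (5.81% higher and 4.8% lower in transgenic animals). Without wildtype replicate 1 the median of the meningeal list was 0.83 and 8 of its genes passed, and with the Y-linked covariate its median was 0.11. The choroid plexus list averaged 0.49, -0.18 and 0.57 in transgenic animals and 0.47, -0.51 and -0.84 in wildtype animals. All 9 of its genes had a higher transgenic mean, with a median of 0.67. That median was 1.13 without wildtype replicate 1, 0.24 without wildtype replicate 3 and -0.19 with the Y-linked covariate. In the astrocyte list, 10 of 13 genes had a higher transgenic mean, with a median of 0.09, or 0.05 with the Y-linked covariate. An unadjusted p under 0.05 in limma was found for 4 astrocyte genes, all higher, and none passed. Transgenic replicate 3 was the highest array in 9 of the 13 genes and wildtype replicate 2 the lowest in 9. The array means of this list were 0.02, 0.05 and 0.11 in transgenic animals and -0.01, -0.12 and -0.04 in wildtype animals. The neuronal list had a median of 0.01 and array means between -0.04 and 0.03, and transgenic replicate 3 was the highest in 8 of its 16 genes. The endothelial list averaged 0.17, 0.09 and 0.08 in transgenic animals and -0.01, -0.24 and -0.09 in wildtype animals. Its 12 genes all had a higher transgenic mean, with a median of 0.22, or 0.12 with the Y-linked covariate, and 6 had an unadjusted p under 0.05. Microglial genes had a median of 0.05 and thalamic ones a median of 0.10. The part of these cells in the myelin values was not tested.

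Schwann cell genes, which would mark attached nerve, had a median of -0.01 over 8 measured genes of 11, with 2 higher and 1 lower at an unadjusted p under 0.05 and none past the threshold in limma. Their summed level (log2 of the summed linear signals) lay between 12.20 and 12.27 in transgenic animals and between 12.12 and 12.18 in wildtype animals. These ranges did not overlap, as in 17.7% of single probes. The sum rests mostly on Mlip and Pmp22, with means of 10.80 and 10.32 in transgenic and 10.78 and 10.04 in wildtype animals. Whether nerve was attached was not tested. The genes with the smallest p were Egr2 (0.42 ± 0.13, SE), which neurons also induce on activity, Pmp22 (0.29 ± 0.11), and Dhh (-0.16 ± 0.06). Pmp2 and Prx, myelin genes of these cells, had no probe with 1 symbol.

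**Figure D5:**
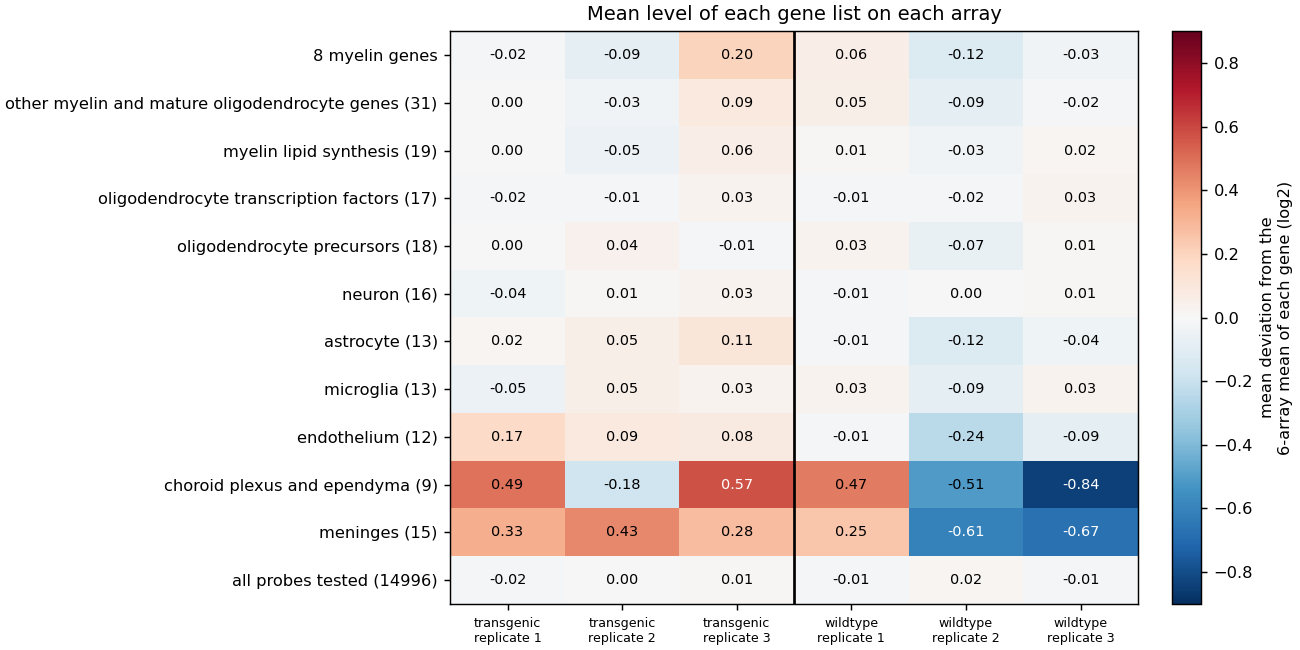
Mean deviation of each gene list on each array from the genes' mean over the 6 arrays (log2), transgenic left of the line and wildtype right; the number of genes is in brackets. The myelin genes range from -0.12 to 0.20, the meningeal list from -0.67 to 0.43 and the choroid plexus list from -0.84 to 0.57.

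Of 7434 genes at or above the median level, the 6 whose course over the 6 arrays was nearest to the mean of the 8 myelin genes were AW549877, Ostc, Cript, Stam2, Tmem234 and Rpf1. Their mean absolute difference from it was 0.017 to 0.025 on the log2 scale, beside a median of 0.096 over the genes searched. Not all of the 8 myelin genes followed this mean closely themselves. Relative to it, Opalin lay at -0.34 in transgenic replicate 2 and Mobp at 0.24 in transgenic replicate 1. None of the 6 nearest genes is on a list of oligodendrocyte genes used here. Cript, which encodes a small protein that binds a postsynaptic scaffold, had 11.62, 11.64 and 11.91 in transgenic animals and 11.77, 11.60 and 11.68 in wildtype animals. As in Mog and Mag, transgenic replicate 3 was the highest and stood apart from the other transgenic animals. This likeness follows from picking Cript by its nearness to the mean of the 8 myelin genes.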

How the data were processed

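The deposited table holds log2 signals per probe of an Affymetrix array, made by the authors with RMA on the build mm8, per the submitters' processing notes. The sources used here give neither RMA's version nor a filter. Array medians lay between 7.44 and 7.47. Of 23332 probes, the platform annotation in GEO, possibly outdated, gave 1 symbol for 14996, several for 1019 and none here for 7317. The 14996 were fitted with limma 3.58.1 in R 4.3.3 (lmFit, eBayes, no covariate), two-sided, with Benjamini-Hochberg adjustment. The rate of 10% is that of the series, which adds a 2-fold threshold; no probe passed both. Errors are moderated standard errors, and group differences are transgenic minus wildtype. Animals are separate per the labels, which give no batch. The script was tested on simulated data. Members and gene lists were chosen with earlier results of these data known. Named are all members, the 3 genes of smallest p per oligodendrocyte-related or Schwann cell list, 5 further genes by name and the 6 nearest profiles; other cell type lists are given as counts and array means. Where a gene had several probes, the one with the highest mean was used. The alternatives were a replicate block, other normalizations, filters, moderation, weights and thresholds, arrays left out and the Y-linked signal. Settings with the Y-linked signal were added after the data were seen.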

Additional observations from a re-analysis of the deposited data

How the results depend on the processing

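No myelin gene passed under any of the 19 alternatives. In 9 of these no probe passed at all, so they bear on the differences and not on the calls. The median difference of the 8 genes stayed between -0.01 and 0.13, moving by less than the spread between replicates (0.123). Differences of Mog, Mobp, Cldn11, Mal and Opalin kept their direction in all 17 refits. Those of the others turned with array weights (Mbp -0.01, Mag 0.00) and in the leave-one-out fits, where Mbp ran from 0.00 to 0.09, Mag from -0.02 to 0.14 and Cnp from -0.04 to 0.13; the cause was not tested. Over all probes the count past 10% was 7. It was 12 with trend and robust estimation or array weights, 0 without moderation, over all 23332 probes, with the Y-linked covariate, without wildtype replicates 2 and 3, or with a replicate block, and 0 to 103 with 1 array left out. At an unadjusted p of 0.05 it was 1592. Whether replicate numbers pair the animals was not settled. Deviations from group means correlated at 0.23, 0.15 and 0.02 for same-numbered animals and between -0.25 and 0.09 for the others. Each transgenic animal correlated best with the wildtype animal of its number, while wildtype replicate 3 correlated best with transgenic replicate 2. With the replicate block the median of the myelin genes was 0.06 and no myelin gene passed. No gene of the other myelin list passed at 10% in any refit except Apod without wildtype replicate 1. Arrays of 3 animals per group limit what could be detected.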

Other observations

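Cldn11 lies on chromosome 3, with 11 measured genes between it and Pld1 in the gene order of GRCm38.p6. Pld1, an enzyme of phosphatidic acid synthesis, had a difference of -0.47. All 7 genes past the threshold of 10% lie between Mtfr1 and Pld1 on that chromosome. The 10 measured genes nearest to Cldn11, 5 on each side, had a median difference of -0.05. Of these 10, 8 were below 0, as were 7508 of all 14996 probes, and an effect of the region was not tested. Skil, a repressor of TGF-beta signalling next to Cldn11, had 8.45, 8.28 and 8.39 in transgenic animals and 8.61, 8.53 and 8.48 in wildtype animals, a difference of -0.17 ± 0.07 (SE, limma adjusted p = 0.470). Slc7a14, its neighbour on the other side, differed by -0.04 ± 0.06, while Cldn11 itself differed by 0.18 ± 0.08.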
